A study of Mus musculus with 8 samples.

Results

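The platelet-derived growth factor (PDGF) ligands and receptors were examined in RNA of cardiac fibroblasts, as 7 genes chosen by name from the 18957 genes listed for each library. They comprise the receptor genes *Pdgfra* and *Pdgfrb*, the receptor-like gene *Pdgfrl* and the ligand genes *Pdgfa*, *Pdgfb*, *Pdgfc* and *Pdgfd*. Of the 7 genes, 6 passed the filter on low counts and were tested between genotypes among 13036 genes, and *Pdgfc* did not pass. The WT group, 4 libraries, came from mice with wild-type alleles alone and no Cre transgene. The *Pdgfra-Cre*:*Lmna*F/F group, 4 libraries, came from mice with both *Lmna* alleles floxed at exon 2 and a BAC transgene that expresses Cre recombinase from *Pdgfra* control sequences. No library of mice with the Cre transgene alone was analysed here, so that the transgene and the loss of *Lmna* cannot be told apart. All mice were 3 to 4 weeks old, of a mixed C57BL/6 strain. After collagenase digestion of the ventricles, living cells that bound an antibody against PDGFRA and lacked haematopoietic lineage markers were sorted. PDGFRA was therefore both the gate of the sort and the source of the Cre driver, and the level of its transcript describes cells already chosen for the protein.

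PDGFs are secreted dimers that bring together a pair of receptor tyrosine kinases, PDGFRA and PDGFRB, which then phosphorylate each other and recruit adaptors and enzymes to the membrane. PDGF-A and PDGF-B are cut by proprotein convertases inside the cell. PDGF-C and PDGF-D leave it in a latent form with a CUB domain that plasminogen activators or related proteases remove outside. PDGF-A, PDGF-B and PDGF-C can activate PDGFRA, whereas PDGF-B and PDGF-D are the main ligands of PDGFRB. In the heart, PDGFRA marks fibroblasts, and PDGFRB is found on pericytes, smooth muscle cells and fibroblasts.

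The ligand genes fall into 2 classes that can be seen in the coding sequence of the growth factor core, shown because *Pdgfd*, which had the lowest p of the PDGF genes, and *Pdgfc*, which was near the limit of detection, belong to the same class. Each line gives 39 bases of the mouse coding sequence from the GENCODE M21 transcripts, with the codons for cysteine in capitals.
Pdgfa: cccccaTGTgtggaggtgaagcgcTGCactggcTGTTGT
Pdgfb: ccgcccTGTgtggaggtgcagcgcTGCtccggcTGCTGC
Pdgfc: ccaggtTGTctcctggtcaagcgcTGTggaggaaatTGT
Pdgfd: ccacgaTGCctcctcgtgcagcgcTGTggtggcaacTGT
Counted from the first base of the coding sequence, the stretch covers bases 361 to 399 of *Pdgfa*, 364 to 402 of *Pdgfb*, 814 to 852 of *Pdgfc* and 880 to 918 of *Pdgfd*. It lies much farther from the start in *Pdgfc* and *Pdgfd*, whose first part encodes the CUB domain. *Pdgfa* and *Pdgfb* have 4 cysteine codons here, and *Pdgfc* and *Pdgfd* have 3. Of the 13 codons, 11 encode the same amino acid in *Pdgfa* and *Pdgfb*, and 11 do so in *Pdgfc* and *Pdgfd*. Across the classes, 7 or 8 codons encode the same amino acid.

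Total counts ranged from 2080555 in WT replicate 2, the shallowest library, to 12502949 in *Pdgfra-Cre*:*Lmna*F/F replicate 4, the deepest. Levels are given as CPM, counts relative to the library total after TMM scaling. The targeted gene, *Lmna*, which encodes lamin A and lamin C of the nuclear lamina, lay between 273.7 and 482.9 CPM in WT and between 90.4 and 130.0 CPM among *Pdgfra-Cre*:*Lmna*F/F libraries, and its log2 fold change was -1.72 with an edgeR adjusted p of 0.00492. The fibroblast markers were abundant in every library, with sums of 40549 to 55904 CPM over 8 genes, one of which is *Pdgfra*. *Pdgfra-Cre*:*Lmna*F/F replicate 4 stood apart in markers of other cells. Its cardiac myocyte markers summed to 5356 CPM, against 273.5 to 935.7 CPM in the other 7 libraries, and its macrophage and other haematopoietic markers to 393.4 CPM, against 37.4 to 161.9 CPM. The part of these cells in the values below was not tested.

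None of the 6 PDGF genes tested was called at an adjusted p under 0.05, while 53 of the 13036 genes tested, 0.407%, were. The edgeR quasi-likelihood test gave *Pdgfd* an unadjusted p under 0.05, as it did for 11.9% of all genes tested. Of the 6 genes, 1, *Pdgfra*, had a log2 fold change above 0, compared with 51.8% of all genes tested. The CPM ranges of the genotypes overlapped for all 7 genes. They did not overlap for 8.03% of all genes tested. DESeq2 and limma-voom also called 0 of these genes. The intervals of the difference were narrower for *Pdgfra* and *Pdgfrb* than for the ligands tested. The 95% intervals of the fold still ran from 0.885 to 1.72 for *Pdgfra* and from 0.655 to 1.32 for *Pdgfrb*.

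**Figure D1:**
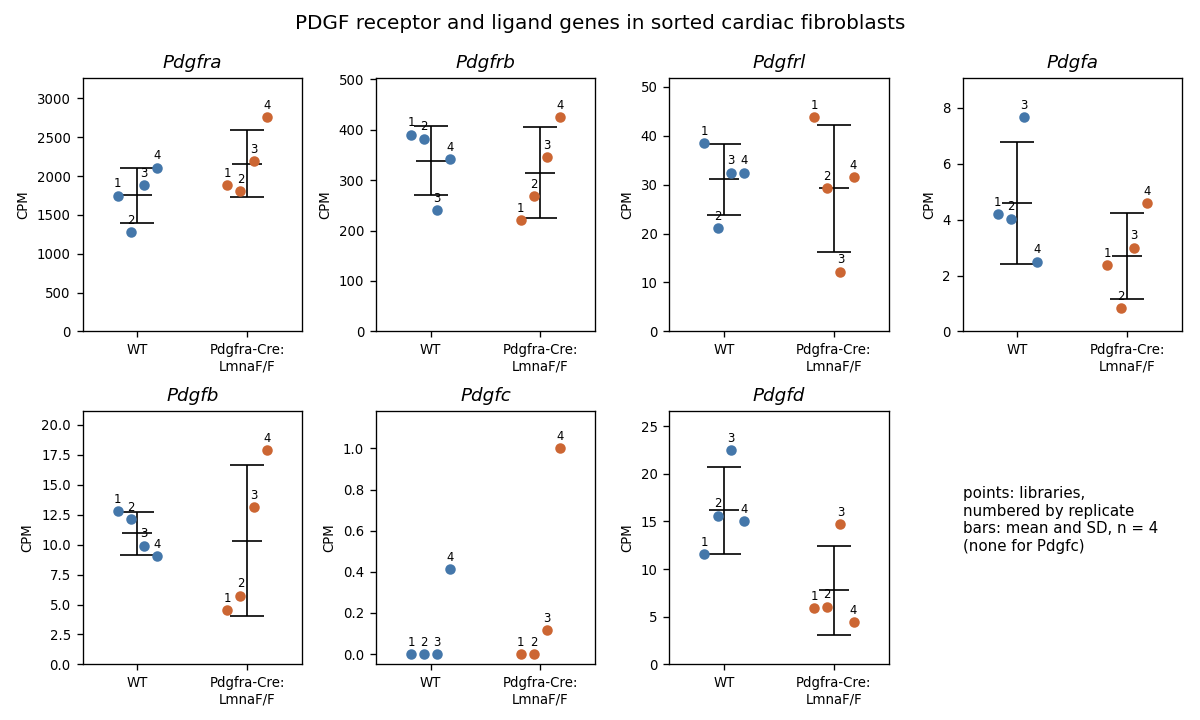
CPM of the 7 PDGF genes in each library, with 1 panel and 1 linear axis per gene. Points are libraries numbered by replicate, and bars give the mean and SD of 4 libraries, except for *Pdgfc*, which had no count in 5 libraries. The groups overlap in every panel, and *Pdgfd* shows 3 of 4 *Pdgfra-Cre*:*Lmna*F/F libraries below all WT libraries.

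*Pdgfra*, whose receptor binds most PDGF dimers and which lies at chr5:75152292-75198215 on the plus strand of mm10, was among the most abundant transcripts. Only 41 genes, 0.315% of those tested, had a higher mean CPM. The WT libraries 1 to 4 held 1747, 1275, 1881 and 2108 CPM. The *Pdgfra-Cre*:*Lmna*F/F libraries 1 to 4 held 1882, 1807, 2191 and 2761 CPM. The lowest value was that of the shallowest library, WT replicate 2, and the highest that of *Pdgfra-Cre*:*Lmna*F/F replicate 4, with the other 6 libraries between 1747 and 2191 CPM. WT averaged 1753 ± 351.6 CPM and the other genotype 2160 ± 433.9 CPM (SD over 4 libraries each). A log2 fold change of 0.30 was estimated with a standard error of 0.22 and an edgeR adjusted p of 0.666. The 95% interval of the fold ran from 0.885 to 1.72. A transcript level in sorted bulk RNA does not tell fewer cells with the transcript from less of it in each cell.

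*Pdgfrb*, which encodes the other receptor kinase and lies at chr18:61045150-61085061 on the plus strand, was well measured in all libraries. The WT libraries held 390.2, 382.4, 240.6 and 341.7 CPM, whereas *Pdgfra-Cre*:*Lmna*F/F libraries held 221.1, 268.8, 345.5 and 425.3 CPM. Both extremes of the 8 values came from *Pdgfra-Cre*:*Lmna*F/F mice. For *Pdgfrb* the log2 fold change was -0.10 with a standard error of 0.24 and an edgeR adjusted p of 0.921, and the 95% interval of the fold ran from 0.655 to 1.32. Without *Pdgfra-Cre*:*Lmna*F/F replicate 1 the log2 fold change was 0.03. The 8 pericyte markers, genes of another cell type that carries PDGFRB, summed to 339.6 ± 79.1 CPM in WT and 291.7 ± 82.5 CPM among *Pdgfra-Cre*:*Lmna*F/F libraries (SD, n = 4). By library the sum was 428.9, 308.4, 374.2 and 246.9 CPM in WT, and 211.7, 249.5, 304.0 and 401.7 CPM among *Pdgfra-Cre*:*Lmna*F/F libraries. The latter stood in the same order as for *Pdgfrb*, and the WT libraries did not. Among the markers, *Rgs5*, a regulator of G-protein signalling, lay between 59.1 and 204.4 CPM. *Cspg4*, the NG2 proteoglycan, lay between 12.0 and 27.4 CPM, and *Kcnj8*, a potassium channel subunit, between 14.6 and 42.5 CPM. The part of pericytes in the *Pdgfrb* level was not tested.

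*Pdgfrl* encodes a secreted protein that resembles the extracellular part of the receptors and has no kinase domain, and it lies at chr8:40926212-40990785 on the plus strand. The WT libraries held 38.5, 21.1, 32.4 and 32.4 CPM, whereas *Pdgfra-Cre*:*Lmna*F/F libraries held 43.8, 29.3, 12.2 and 31.5 CPM. *Pdgfra-Cre*:*Lmna*F/F libraries again held both the lowest and the highest value. Its log2 fold change was -0.10 with a standard error of 0.35 and an edgeR adjusted p of 0.949. Without *Pdgfra-Cre*:*Lmna*F/F replicate 3, the lowest library, it was 0.15, and without WT replicate 1 it was 0.02.

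*Pdgfa*, the ligand gene on the minus strand at chr5:138976014-138997370, had 8 to 55 counts per library. The WT libraries held 4.2, 4.03, 7.67 and 2.49 CPM, whereas *Pdgfra-Cre*:*Lmna*F/F libraries held 2.38, 0.834, 2.99 and 4.58 CPM. The highest value was a WT library and the lowest a *Pdgfra-Cre*:*Lmna*F/F library, and the remaining 6 were mixed. The log2 fold change was -0.76 with a standard error of 0.91, and the edgeR adjusted p was 0.827. The 95% interval of the fold ran from 0.152 to 2.28, so that neither a large fall nor a rise could be told from no difference at this depth.

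*Pdgfb*, the ligand that binds both receptors, lies on the minus strand at chr15:79995874-80014977 and is known to be made mainly by endothelial cells and platelets. The WT libraries held 12.8, 12.1, 9.91 and 9.01 CPM, within a narrow range. The *Pdgfra-Cre*:*Lmna*F/F libraries held 4.55, 5.74, 13.1 and 17.9 CPM, with 2 libraries below and 2 above all WT libraries. The means were 10.9 ± 1.78 and 10.3 ± 6.32 CPM (SD, n = 4). Here the log2 fold change was -0.08 with a standard error of 0.51 and an edgeR adjusted p of 0.973. It was 0.01 without WT replicate 1, and 0.16 and 0.12 without *Pdgfra-Cre*:*Lmna*F/F replicates 1 and 2.

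Endothelial transcripts were present in every sorted library. *Pecam1*, an endothelial adhesion molecule, held 55.2, 49.8, 68.2 and 52.1 CPM in WT and 17.5, 33.8, 49.2 and 53.1 CPM among *Pdgfra-Cre*:*Lmna*F/F libraries. *Cdh5*, the endothelial cadherin, held 62.8, 40.8, 45.7 and 42.0 CPM in WT and 16.6, 8.13, 22.1 and 38.3 CPM among *Pdgfra-Cre*:*Lmna*F/F libraries. These markers had log2 fold changes of -0.56 and -1.17. Of the same list, *Kdr*, *Tek*, *Emcn* and *Egfl7* had -0.46, -0.59, -0.17 and -0.28, and *Vwf* and *Cldn5* had 0.40 and 0.27. None passed the test. The 8 endothelial markers summed to 559.5 to 770.4 CPM in WT and 444.5 to 555.9 CPM among *Pdgfra-Cre*:*Lmna*F/F libraries, which did not overlap, with an exact two-sided permutation p of 0.0286, the smallest that 4 against 4 libraries can give, and an adjusted p of 0.257 over 9 marker lists. *Tek*, an angiopoietin receptor, held most of this sum. Without it the other 7 genes summed to 182.7 to 282.3 and 111.8 to 226.9 CPM, which overlapped, with an exact permutation p of 0.171. The part of endothelial cells in the *Pdgfb* level was not tested. The 5 platelet and megakaryocyte markers listed summed to 8.90 to 16.6 CPM per library.

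*Pdgfc*, on the plus strand at chr3:81036416-81214040, was near the limit of detection. The WT libraries had 0, 0, 0 and 4 counts, whereas *Pdgfra-Cre*:*Lmna*F/F libraries had 0, 0, 1 and 12 counts. The 2 libraries above 3 counts were replicate 4 of each genotype, the second of which also had the most cardiac myocyte and macrophage markers. In a library with no count, 3 counts set the upper limit, which came to 0.28 CPM in WT replicate 1 and 1.51 CPM in the shallow WT replicate 2, for counting error only. No difference between the genotypes could be measured at this depth.

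*Pdgfd*, a ligand of PDGFRB on the plus strand at chr9:6168584-6378850, had the lowest p of the PDGF genes. The WT libraries held 11.6, 15.6, 22.5 and 15.0 CPM, whereas *Pdgfra-Cre*:*Lmna*F/F libraries held 5.90, 6.05, 14.7 and 4.42 CPM. *Pdgfra-Cre*:*Lmna*F/F replicates 1, 2 and 4 lay below all WT libraries, and replicate 3 lay among them. The means were 16.2 ± 4.59 and 7.77 ± 4.70 CPM (SD, n = 4). The log2 fold change was -1.06 with a standard error of 0.48 and a 95% interval of -2.09 to -0.03. The edgeR p was 0.0445 before and 0.405 after adjustment, so that the difference did not pass the test, and 10.8% of all genes tested had a larger absolute log2 fold change. Without *Pdgfra-Cre*:*Lmna*F/F replicate 3 the log2 fold change was -1.56. Over all omissions of 1 library it ran from -1.56 to -0.86, with adjusted p values of 0.268 to 0.611.

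**Figure D2:**
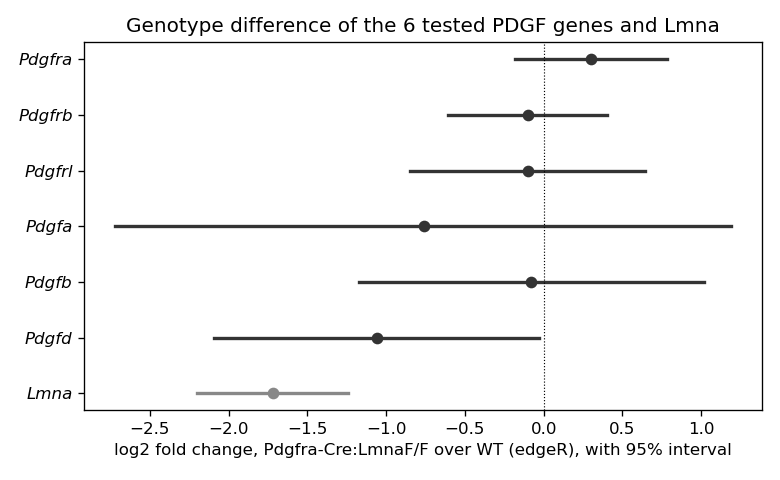
Log2 fold change of *Pdgfra-Cre*:*Lmna*F/F over WT for the 6 PDGF genes tested and for *Lmna*, with 95% intervals from the edgeR fit of 4 against 4 libraries. The intervals of *Pdgfra*, *Pdgfrb*, *Pdgfrl*, *Pdgfa* and *Pdgfb* include 0, that of *Pdgfd* ends at -0.03 before adjustment, and that of *Lmna* lies at -2.20 to -1.24.

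The levels of different genes were compared as CPM per kilobase of exon, with the length of all exons of a gene merged in GENCODE M21. *Pdgfra* was highest at 195.2 ± 42.5 (SD, n = 8 libraries), then *Pdgfrb* at 59.7 ± 13.7 and *Pdgfrl* at 9.65 ± 3.13. The ligands followed, with *Pdgfd* at 3.80 ± 1.97, *Pdgfb* at 2.56 ± 1.04, *Pdgfa* at 1.17 ± 0.650 and *Pdgfc* at 0.0376 CPM per kilobase. *Pdgfra* was above *Pdgfrb*, *Pdgfrb* above *Pdgfrl*, and *Pdgfa* above *Pdgfc* in 8 of 8 libraries. *Pdgfrl* exceeded *Pdgfd*, *Pdgfd* exceeded *Pdgfb*, and *Pdgfb* exceeded *Pdgfa* in 7 of 8 libraries each. Per kilobase of coding sequence, *Pdgfb* at 14.7 ± 5.96 came before *Pdgfd* at 10.8 ± 5.60, and the other 5 genes kept their rank. By genotype, *Pdgfd* was at 5.13 ± 1.45 CPM per kilobase of exon in WT and *Pdgfb* at 2.63 ± 0.429, while in *Pdgfra-Cre*:*Lmna*F/F libraries they were at 2.46 ± 1.49 and 2.48 ± 1.52 (SD, n = 4). The 1 library with *Pdgfb* above *Pdgfd* on this scale was *Pdgfra-Cre*:*Lmna*F/F replicate 4. The order of *Pdgfd* and *Pdgfb* therefore changed with the length used, and their means in the latter genotype differed by less than the spread between libraries.

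**Figure D3:**
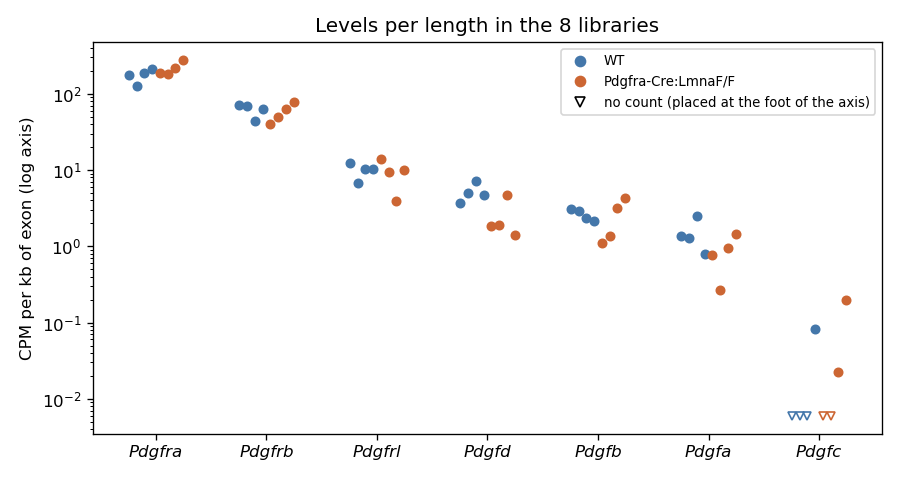
CPM per kilobase of exon, on a log axis, for the 7 PDGF genes in 4 WT and 4 *Pdgfra-Cre*:*Lmna*F/F libraries, ordered by mean level. Each point is a library, and open triangles at the foot of the axis stand for the 5 libraries without a *Pdgfc* count. The kinase receptors *Pdgfra* and *Pdgfrb* lie above *Pdgfrl* and the ligands in all 8 libraries.

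Ratios within a library do not depend on its total. WT libraries had 4.48, 3.33, 7.82 and 6.17 *Pdgfra* counts per *Pdgfrb* count, and *Pdgfra-Cre*:*Lmna*F/F libraries had 8.51, 6.72, 6.34 and 6.49. The WT libraries spanned a wider range, and the groups overlapped. Per kilobase of exon, the ratio was 2.98 ± 1.07 in WT and 3.83 ± 0.550 in *Pdgfra-Cre*:*Lmna*F/F libraries (SD, n = 4). *Pdgfra* was the more abundant receptor transcript in every library on both scales.

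The CPM of the 4 ligand genes summed to 28.6, 31.7, 40.1 and 26.9 in WT and to 12.8, 12.6, 31.0 and 27.9 in *Pdgfra-Cre*:*Lmna*F/F libraries. Replicates 1 and 2 of the latter were the lowest, and replicates 3 and 4 lay within the WT range. Per count of a ligand gene there were 74.8, 52.3, 52.9 and 91.0 counts of *Pdgfra* and *Pdgfrb* in WT and 163.9, 164.5, 81.9 and 114.2 in *Pdgfra-Cre*:*Lmna*F/F libraries. Ligand transcripts were thus scarce beside those of the receptors in both genotypes. *Pdgfd* made up 45.4 to 61.0% of the ligand level per kilobase of exon in 7 libraries and 19.0% in *Pdgfra-Cre*:*Lmna*F/F replicate 4, where *Pdgfb* made up 58.4%. That library had the highest *Pdgfb* and the lowest *Pdgfd* of all, along with the high myocyte and macrophage markers given above.

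**Figure D4:**
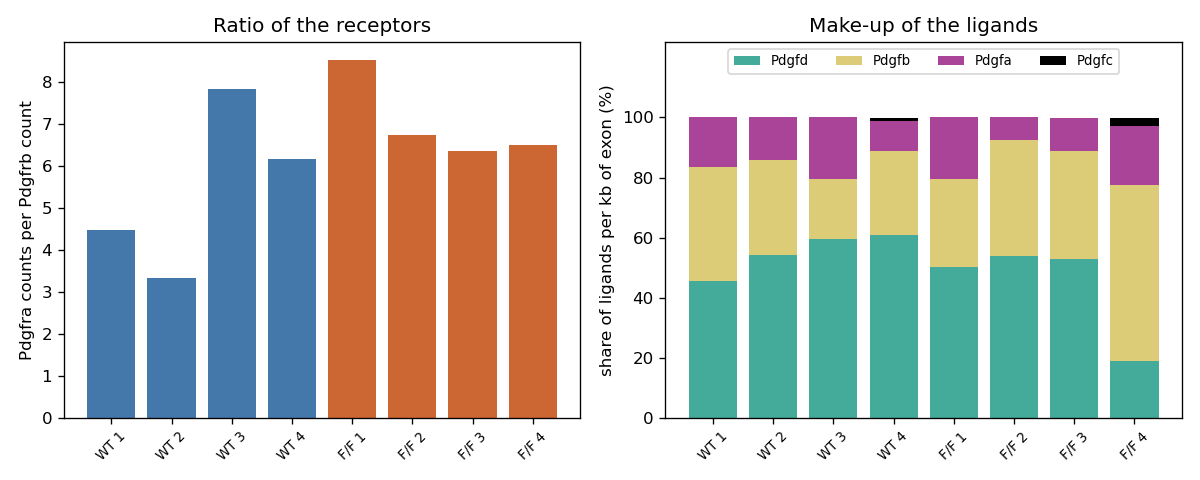
Left, *Pdgfra* counts per *Pdgfrb* count in each library. Right, the share of each ligand gene in the summed CPM per kilobase of exon of the 4 ligand genes, in percent. F/F stands for *Pdgfra-Cre*:*Lmna*F/F, and numbers are replicates. The ratio spans 3.33 to 8.51 with overlapping groups, and *Pdgfd* holds 19.0% of the ligand level in *Pdgfra-Cre*:*Lmna*F/F replicate 4 against 45.4 to 61.0% elsewhere.

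For each tested PDGF gene, the genes with the most similar log2 CPM over the 8 libraries were ranked among all tested genes above a minimum mean level, as a description. *Pdgfra* was closest to *Appl2* and *Fcgrt*, both with Pearson r = 0.989, and *Pdgfrb* to *Cyp27a1* with r = 0.962 and *Gpihbp1* with r = 0.961. *Pdgfb* was closest to *Plcg1* with r = 0.932 and *Gpihbp1* with r = 0.929. *Pdgfd* was closest to *Cyb5b* with r = 0.970, *Pdgfa* to *Esrra* with r = 0.975 and *Pdgfrl* to *Mrpl23* with r = 0.954. All 8 points share the libraries and their depth, and the highest of that many correlations is high by selection.

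The proteases, inhibitors, binding proteins and co-receptors that act on PDGFs formed a list of 15 genes, all tested. None was called, against 0.407% of all genes tested, and 4 had an unadjusted p under 0.05 by edgeR, against 11.9%. The median log2 fold change was -0.18, against 0.02 over all genes tested. *Pcsk6*, a proprotein convertase, held 2359 to 3113 CPM in WT and 1074 to 2005 CPM among *Pdgfra-Cre*:*Lmna*F/F libraries, without overlap, with a log2 fold change of -0.90 and an edgeR adjusted p of 0.123. *Furin*, another convertase, held 61.0 to 106.7 and 35.5 to 90.6 CPM. *Plat*, the tissue plasminogen activator that cleaves PDGF-C, held 213.3 to 314.0 CPM in WT and 154.8 to 378.7 CPM among *Pdgfra-Cre*:*Lmna*F/F libraries, with a log2 fold change of 0.07. For the proteases of PDGF-D, the log2 fold change was -0.44 for *Plau*, urokinase, and -0.54 for *St14*, matriptase, the latter at 2.75 CPM or less in every library. Neither had an unadjusted p under 0.05.

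*Thbs1*, a matrix glycoprotein that binds PDGF, held 320.5, 375.4, 266.2 and 256.8 CPM in WT and 740.8, 920.4, 2265 and 278.3 CPM among *Pdgfra-Cre*:*Lmna*F/F libraries. Replicates 1 to 3 were above all WT libraries and replicate 4 was among them, and the log2 fold change of 1.79 had an edgeR adjusted p of 0.114. *Sparc*, a matricellular protein that binds PDGF-B, held 5115 to 6487 CPM in WT and 2617 to 4240 CPM among *Pdgfra-Cre*:*Lmna*F/F libraries, without overlap, with a log2 fold change of -0.64 and an edgeR adjusted p of 0.250. The co-receptors *Nrp1* and *Lrp1* had log2 fold changes of -0.17 and -0.40, and neither had an unadjusted p under 0.05. Of this list, DESeq2 called *Pcsk6* and *Sparc*, both lower, and limma-voom also called *Pcsk6* lower. Without *Pdgfra-Cre*:*Lmna*F/F replicate 4, edgeR called *Thbs1* higher.

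Adaptors and enzymes that carry the signal from the receptors formed a list of 35 genes, all tested. None was called, against 0.407% of all genes tested, and 2 had an unadjusted p under 0.05 by edgeR, against 11.9%. The median log2 fold change was 0.01. The lowest p values were those of *Stat3*, a transcription factor activated by phosphorylation, with a log2 fold change of 0.45 and an edgeR adjusted p of 0.370, and of *Akt1*, a survival kinase, with -0.46 and 0.381. Regulators of receptor turnover and phosphatases formed a list of 16 genes, of which 15 were tested. None was called, against 0.407% of all genes tested, and 1 had an unadjusted p under 0.05 by edgeR, against 11.9%. The median log2 fold change was 0.02. *Socs3*, an inhibitor of cytokine receptor signalling, held 47.7, 64.4, 150.5 and 89.3 CPM in WT and 223.3, 207.9, 207.3 and 342.8 CPM among *Pdgfra-Cre*:*Lmna*F/F libraries, without overlap. Its log2 fold change of 1.48 had an edgeR adjusted p of 0.0627, and DESeq2 and limma-voom called it higher, as did edgeR without WT replicate 3. *Ptpn12*, a tyrosine phosphatase, had a log2 fold change of 0.46 and did not pass the test.

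Genes that PDGF induces in cultured fibroblasts formed a list of 18 genes, all tested. Of these, 2 rose in *Pdgfra-Cre*:*Lmna*F/F libraries and none fell, while 0.169% of all genes tested were called higher. The median log2 fold change of the list was 1.31, against 0.02 over all genes tested. The genotypes did not overlap for 10 of the 18 genes, all higher in *Pdgfra-Cre*:*Lmna*F/F libraries, against 8.03% of all genes tested in either direction. The list was chosen with earlier results of these data known, so that these values describe it and are not a test of it. *Egr2*, an early growth response transcription factor, rose from 24.4, 11.1, 33.4 and 14.2 CPM in WT to 72.4, 117.4, 264.0 and 79.2 CPM among *Pdgfra-Cre*:*Lmna*F/F libraries, with a log2 fold change of 2.65 and an edgeR adjusted p of 0.0202. *Ier3*, an immediate-early gene linked to cell survival, rose from 11.5, 21.1, 21.1 and 11.4 CPM to 51.5, 47.3, 86.2 and 50.1 CPM, with a log2 fold change of 1.88 and an edgeR adjusted p of 0.0221. All 4 *Pdgfra-Cre*:*Lmna*F/F libraries were above all WT libraries for both genes.

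Among the other 16 genes of the list, 9 had an unadjusted p under 0.05 by edgeR, all higher, against 11.9% of all genes tested in either direction. The following were chosen after their values were seen. The transcription factor genes *Egr3*, *Fos*, *Junb* and *Egr1* had log2 fold changes of 2.42, 1.80, 1.61 and 1.32, with edgeR adjusted p values of 0.0645, 0.0757, 0.0791 and 0.117. The chemokine genes *Ccl2* and *Cxcl1* had log2 fold changes of 2.10 and 1.93, with adjusted p values of 0.135 and 0.151. *Dusp6* and *Spry2*, feedback inhibitors of the MAPK pathway, had log2 fold changes of 0.77 and -0.30, *Myc* had 0.00, and *Has2*, a hyaluronan synthase, had -0.14. Most genes of this list respond to many stimuli besides PDGF, among them other growth factors, serum and the enzymatic digestion of tissue, and the part of each in these values was not tested. The number of genes called in the list was 1 without WT replicate 1, 6 without WT replicate 3, 0 without WT replicate 4, 1 without *Pdgfra-Cre*:*Lmna*F/F replicate 3 and 4 without *Pdgfra-Cre*:*Lmna*F/F replicate 4. DESeq2 called 8 and limma-voom 7, all higher.

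**Figure D5:**
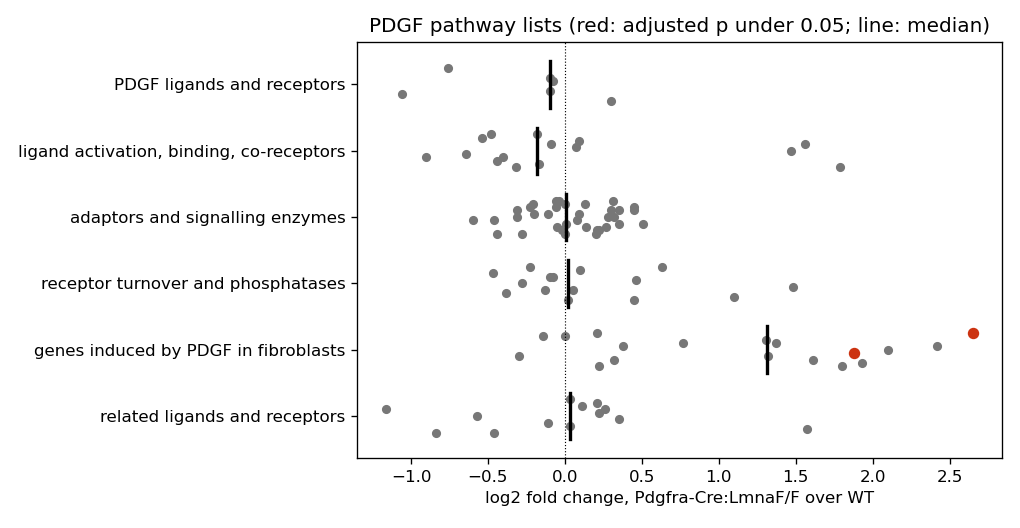
Log2 fold change of *Pdgfra-Cre*:*Lmna*F/F over WT for the tested genes of 6 lists, with 1 point per gene, the vertical offset serving only to separate points. Black lines are list medians, and red points are the 2 genes with an edgeR adjusted p under 0.05, *Egr2* and *Ier3*. The medians of 5 lists lie between -0.18 and 0.03, and that of the PDGF-induced genes lies at 1.31.

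The relatives of the PDGF genes, that is the VEGF and colony-stimulating ligands and the receptors of the same families, formed a list of 14 genes, of which 13 were tested and none was called. Over all genes tested, 0.407% were called. An unadjusted p under 0.05 by edgeR was found for 2 of the 13, 1 higher and 1 lower, against 11.9% of all genes tested. The median log2 fold change was 0.03. *Vegfa*, the main angiogenic ligand, held 91.7 to 193.7 CPM in WT and 56.8 to 86.6 CPM among *Pdgfra-Cre*:*Lmna*F/F libraries, without overlap, with a log2 fold change of -0.84 and an edgeR adjusted p of 0.166. *Csf1r*, a receptor of macrophages, held 12.7, 9.06, 3.52 and 7.77 CPM in WT and 9.0, 25.4, 19.1 and 44.7 CPM among *Pdgfra-Cre*:*Lmna*F/F libraries, with an edgeR adjusted p of 0.213. It is also one of the 8 macrophage and other haematopoietic markers summed above. Its ligand *Csf1* had a log2 fold change of -0.57.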

How the data were processed

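RNA of sorted cells was depleted of ribosomal RNA and sequenced by the authors as stranded 150 bp paired-end libraries, aligned to mm10 with HISAT2 and counted over GENCODE genes by featureCounts. The deposited values are counts of reads, in whole numbers and not scaled for depth. The GENCODE release and the strand setting of the counting are not given in the sources used here. Exons of *Pdgfra*, *Pdgfa* and *Pdgfc* overlap genes on the opposite strand, and those of *Pdgfra* also a microRNA gene on the same strand, so their counts are uncertain to that extent. The authors' methods name RUV normalization, and the values here are whole numbers with unequal totals.

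Counts were fitted in R 4.3.3 with edgeR 4.0.16 (TMM, filterByExpr, quasi-likelihood test, Benjamini-Hochberg adjustment over all tested genes, threshold 0.05), with genotype as the only term. Alternatives used DESeq2 1.42.0, limma 3.58.1, other scalings and filters, 1 RUV factor, thinned counts, a replicate block and the omission of each library. The procedure was tested on simulated data. Marker sums were compared by exact permutation over 70 assignments. Genotypes came from the sample labels. The labels do not say that libraries are separate mice, and p values measure only the spread between libraries.

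Lengths and coordinates are those of GENCODE M21. Named genes were all 7 members, and of each list the genes called or else the 3 with the lowest p, plus proteases and co-receptors acting on PDGFs. Some genes that this rule names are not reported here. For the most similar genes, the minimum mean log2 CPM was 1. The members and lists were chosen with earlier results of these data known.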

Additional observations from a re-analysis of the deposited data

Results flagged for a closer look

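Within each group of 4 libraries, a library was singled out by Dixon's ratio of its gap to the nearest other library over the group's range. The limit was the 95% critical value, which chance passes in about 1 of 20 groups of independent, normally distributed values. Of 38 groups examined, 8 held such a library. Values of *Pdgfc* at 0 do not meet this condition, and groups that hold the same library are not independent. The 8 of 38 therefore cannot be set against that rate. Among the PDGF genes, these were *Pdgfc* in WT replicate 4 at 0.414 CPM and in *Pdgfra-Cre*:*Lmna*F/F replicate 4 at 1.0 CPM, which rest on 4 and 12 counts, and *Pdgfd* in *Pdgfra-Cre*:*Lmna*F/F replicate 3 at 14.7 CPM. Among the marker lists, *Pdgfra-Cre*:*Lmna*F/F replicate 4 was apart for cardiac myocyte markers at 5356 CPM, smooth muscle markers at 236.9 CPM, macrophage and other haematopoietic markers at 393.4 CPM, and platelet and megakaryocyte markers at 14.9 CPM. *Des*, which is also expressed in cardiac myocytes, gave 188.4 CPM of the smooth muscle sum in that library. WT replicate 1 was apart for cardiac myocyte markers at 935.7 CPM.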

How the results depend on the processing

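The number of PDGF genes called was 0 under all 17 alternatives. The log2 fold change of *Pdgfra* ran from 0.16 to 0.40 over omissions of 1 library, that of *Pdgfa* from -1.15 to -0.40, and that of *Pdgfd* stayed below 0 under all alternatives. The sign of 3 genes changed. *Pdgfrb* ran from -0.28 to 0.03, *Pdgfrl* from -0.37 to 0.15 and *Pdgfb* from -0.49 to 0.16 over omissions of 1 library. *Pdgfrb* was 0.03 without *Pdgfra-Cre*:*Lmna*F/F replicate 1, *Pdgfrl* 0.02 without WT replicate 1 and 0.15 without *Pdgfra-Cre*:*Lmna*F/F replicate 3, and *Pdgfb* 0.01 without WT replicate 1 and 0.16 and 0.12 without *Pdgfra-Cre*:*Lmna*F/F replicates 1 and 2.

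Over all genes, DESeq2 called 309, limma-voom with quality weights 126, edgeR without a filter 274 and edgeR with 1 RUV factor 82, against 53, and omissions of 1 library gave 13 to 76. Among the ligand-activation genes, DESeq2, limma-voom and the fit without a filter called 2 each and omissions 0 to 1, and among the turnover genes *Socs3* was the 1 gene called by DESeq2, limma-voom, no filter, at least 10 counts in every library, 1 RUV factor and the replicate block, with 0 to 1 over omissions. Among the PDGF-induced genes the count was 8 by DESeq2, 7 by limma-voom, 10 without a filter, 7 with 1 RUV factor, 1 after thinning to the smallest library, and 0 to 6 over omissions. The fit without a filter called 1 relative, *Vegfa*. The cause of these differences was not tested.

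The replicate numbers occur in both genotypes, but libraries of the same number did not deviate together, with correlations of -0.027, -0.0298, -0.00406 and 0.0396, and not every library correlated best with its own number. With a replicate block, 36 genes were called over all genes, 0 PDGF genes, 4 PDGF-induced genes and 1 turnover gene. *Pdgfa* was not tested with at least 10 counts in every library or after thinning, and *Pdgfc* could be fitted only without a filter or by DESeq2, which gave it no adjusted p. Leaving *Tek* out of the endothelial list was chosen after seeing the data. Low counts and the spread between libraries both limit the ligand comparisons.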
